A study of Mus musculus with 14 samples.

Results

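Most of the mouse genome lies between genes, and much of what tells a nearby gene when to be transcribed is written there, in promoters of unannotated transcripts, enhancers and insulators. DNA methylation at the cytosine of a CpG dinucleotide is one layer of that control. Active enhancers and CpG-rich promoters tend to carry little of it, while the bulk of intergenic CpGs is methylated in normal adult tissue, and tumours commonly lose it there and gain it at CpG-rich promoters. The sites described here are the intergenic cytosines closest to genes: those that the authors' table of differing CpG sites placed outside every gene and no more than 20000 bases from the nearer flanking gene. They number 784 of 4327 listed sites. Another 1246 listed sites are intergenic and lie farther out, and 2297 were assigned to a gene.

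The tissue was mammary tumour from FVB mice that carry the SV40 T antigen transgene (SV40 Tag). T antigen is a viral oncoprotein that binds the RB and p53 tumour suppressors. The offspring, all kept on control diet, were about 25 weeks of age. Their mothers ate either control diet (3 libraries, "control") or a diet holding 250 mg/kg genistein, a soy isoflavone, from 4 weeks of age to weaning (4 libraries, "maternal genistein"). The labels name neither the promoter that drives the transgene nor the litter of each tumour, so a p-value here reflects the spread between these tumours only, which may be technical in part. The RNA levels of tissue markers per sample were not analysed here, so the tumour label was not checked against them.

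The assay was reduced representation bisulfite sequencing (RRBS), which reads methylation in restriction fragments rich in CpG. Each listed position is 1 cytosine on 1 strand, with its methylated and unmethylated reads in all 7 libraries, and positions are those of the files on build mm10. A level is the percent of reads that are methylated, over all cells of a bulk tumour, so a different mix of cells and a different level within cells cannot be told apart. At the 784 sites the control libraries held 42571, 40666 and 38095 reads (median per site 42, 40 and 38). Those of maternal genistein held 34717, 32138, 39710 and 22893 (median 35, 30, 39 and 19). Maternal genistein replicate 4 is the least precise: 51.3% of its sites had fewer than 20 reads. Control replicate 2 stood apart in level, being the lowest of the 7 libraries at 246 sites.

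The nearer genes number 642, and 541 of them have 1 site. The distance to the nearer gene runs from 1001 to 19992 bases with a median of 8123.5. By RefSeq the nearer gene is protein coding at 661 sites, a long non-coding RNA (lncRNA) at 92 and a microRNA at 20. The gene assignment is the authors'. On RefSeq GRCm38.p6, 176 of the 784 sites (22.4%) lie inside an annotated gene: 95 of these in an lncRNA and 64 in a protein-coding gene, so "intergenic" holds for the annotation the authors used.

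Where a site falls in the promoter window of a RefSeq gene, its sequence could be shown. Windows run from 250 bases before to 50 bases after a start, and 6 windows, all of predicted genes, hold 9 of the sites. All 9 positions read CG in the window, and capitals mark the listed CpGs. The window of the lncRNA Gm40565 is shown whole because it holds 3 sites, among them 1 of the 10 sites with the lowest p. Another 4 windows are shown as the stretch around their sites. All 5 are read 5′ to 3′ on the strand of the gene, from RefSeq GRCm38.p6.
Gm40565, minus strand, chr12:105517701-105518000: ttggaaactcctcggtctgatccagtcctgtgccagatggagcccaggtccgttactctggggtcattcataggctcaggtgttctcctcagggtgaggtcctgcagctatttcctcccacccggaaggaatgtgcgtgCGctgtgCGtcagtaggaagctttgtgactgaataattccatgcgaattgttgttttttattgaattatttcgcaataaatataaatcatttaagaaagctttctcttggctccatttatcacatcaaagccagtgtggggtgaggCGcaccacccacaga
Gm31373, plus strand, chr1:190992747-190992814: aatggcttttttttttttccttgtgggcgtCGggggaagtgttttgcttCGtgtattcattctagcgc
Gm41874, plus strand, chr19:57404460-57404514: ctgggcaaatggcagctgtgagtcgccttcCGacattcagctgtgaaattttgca
Gm32925, plus strand, chr16:87738574-87738635: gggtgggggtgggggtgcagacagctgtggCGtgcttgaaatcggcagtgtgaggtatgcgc
Gm35402, plus strand, chr4:58034570-58034631: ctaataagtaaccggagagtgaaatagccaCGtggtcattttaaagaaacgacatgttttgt

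In the Gm40565 window the listed CpGs lie 111 and 104 bases before the start and 36 bases after it, and all 3 had higher mean levels in maternal genistein. The CpG after the start read 35.7%, 33.3% and 61.1% in the control libraries and 100%, 100%, 100% and 100% in the maternal genistein libraries. These levels rest on 28, 21 and 18 reads in control and on 24, 10, 10 and 13 in maternal genistein. At the CpG 111 bases before the start the levels were 39.1%, 40% and 82.4% in control against 100%, 100%, 89.7% and 100% in maternal genistein. The CpG 104 bases before the start overlapped between the groups, with 21.7%, 0% and 47.1% against 100%, 43.8%, 46.2% and 66.7% (quasi-binomial p = 0.138). In the Gm41874 window the CpG was lower in maternal genistein (54.5% ± 18 against 11% ± 12, mean ± SD), and in the Gm31373 window both CpGs were higher. These windows were shown for their sequence, after the values of their sites were seen, and not for a p.

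The authors had already selected the listed sites for this contrast, with a q-value of at most 0.00959 and a pooled difference of at least 25.0 percentage points. Counts over the 784 sites are therefore read against the same counts over all 4327 listed sites, and no count is an independent test. Of the 784 sites, 444 had a higher and 340 a lower mean level in maternal genistein. The lower share was 43.4% (95% Clopper-Pearson interval 39.9% to 46.9%, counting error only), beside 46.9% of all listed sites and 52.7% of intergenic sites beyond 20 kb. That difference was not tested, since neighbouring sites share reads and tumours. The median absolute difference was 32.2 points, and 31.6 points over all listed sites.

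A quasi-binomial model, which compares methylated with unmethylated reads and scales its error to the spread between libraries of a group, gave a p under 0.05 at 275 sites (35.1%). Of these, 159 were higher and 116 lower in maternal genistein. Over all listed sites 31.6% had such a p, and beyond 20 kb 29.5%. Benjamini-Hochberg adjustment over the 4327 listed sites left 0 of the 784 under 0.05, with a lowest adjusted p of 0.103, where 0.0462% of all listed sites passed. The limma test on logit levels also left 0, with 260 sites (33.2%) at an unadjusted p under 0.05, beside 30.4% of all listed sites. Every level of one group lay above every level of the other at 238 sites (30.4%), 141 higher and 97 lower in maternal genistein, beside 27.8% of all listed sites. Without control replicate 2 the count with a p under 0.05 was 177 (22.6%), beside 22.8% of all listed sites. Without control replicate 3 the groups did not overlap at 379 sites (48.3%), beside 45.0% of all listed sites.

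Levels spread widely within a group. The range between the lowest and the highest library averaged 38.7 points in control and 45.1 points in maternal genistein, against the median difference of 32.2 points. The second range is over 4 libraries and not 3, and was 36.2 to 38.6 points with any 1 of the 4 left out. Reads covering a site, scaled by library, did not overlap between the groups at 54 sites (6.89%), beside 6.86% of all listed sites. The part of DNA copy number in the methylation levels was not tested.

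**Figure D1:**
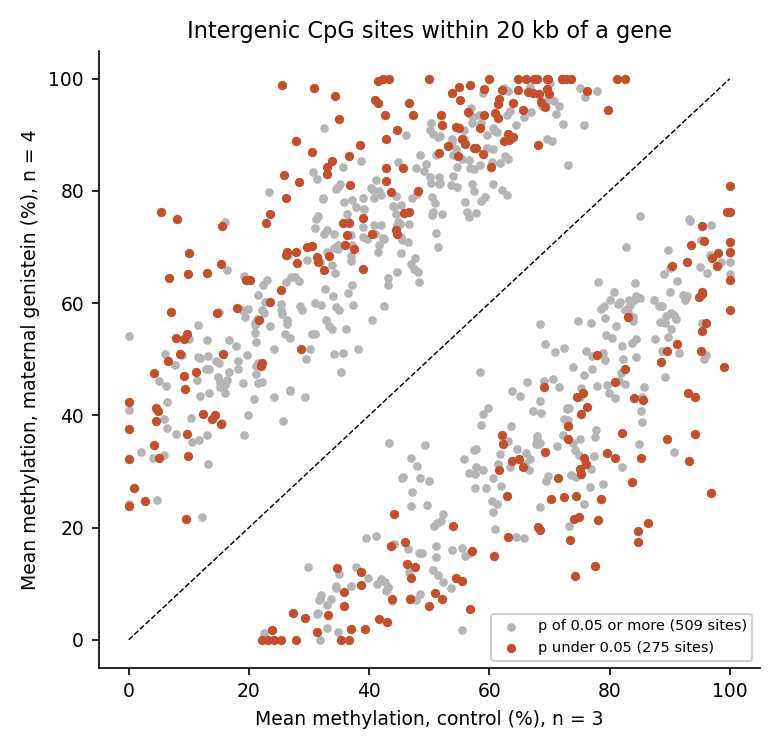
Mean methylation level (%) of each of the 784 intergenic sites in control (x axis, n = 3) and maternal genistein (y axis, n = 4), with the dashed line marking equal levels. The 275 sites in orange have a quasi-binomial p under 0.05, and the empty band along the line follows from the authors' minimum pooled difference of 25.0 points.

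At the 10 sites with the lowest p the groups did not overlap, and the smallest p the exact permutation test can give (0.0286) was reached at each, with an adjusted quasi-binomial p of 0.103. They are given in order of what their nearer genes do. The first concern growth control and survival: E2f2, a transcription factor of entry into S phase that RB restrains, Fgfr1, a receptor tyrosine kinase for fibroblast growth factors, and Mcl1, an anti-apoptotic BCL2 family protein. The site at position 136170450 of chromosome 4, 1824 bases upstream of E2f2, read 52%, 62.2% and 42.2% in control and 10.4%, 6.19%, 4.04% and 8.33% in maternal genistein. It had the lowest p of the 784 sites (0.000202), and group means of 52.1% ± 9.99 and 7.25% ± 2.76 (SD, 3 and 4 libraries, 37 to 99 reads each). The maternal genistein levels all lay near the bottom of the scale, and the control levels near its middle.

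Near Fgfr1, 4733 bases away at position 25514026 of chromosome 8, the control libraries read 10.7%, 20.6% and 45.5% and the maternal genistein libraries 100%, 95.7%, 100% and 100% (quasi-binomial p = 0.00052). Its difference of 73.3 points was the largest positive difference among the 784 sites whose groups did not overlap. A second site, at position 25515366, read 0%, 0% and 23.5% in control and 30.8%, 52.6%, 58% and 73.7% in maternal genistein (quasi-binomial p = 0.0192, or 0.0567 without maternal genistein replicate 3). The third, at position 25513708, was also higher but overlapped between the groups, with means of 21.1% ± 19.4 and 56.4% ± 25 (quasi-binomial p = 0.0973). All 3 sites near Fgfr1 thus had higher mean levels in maternal genistein. Here and below, a second p in parentheses is the highest of those with any 1 library left out, and leaving out other libraries may also bring it to 0.05 or more.

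Downstream of Mcl1 by 1823 bases, at position 95665001 of chromosome 3, the direction was the opposite. Levels there were 86%, 90.2% and 75% in control and 38.1%, 12.5%, 34.2% and 27.8% in maternal genistein (quasi-binomial p = 0.000598). It is the last of 3 neighbouring sites within 55 bases, and the mean over the 3 was 65.6% ± 18.3 for control libraries and 21.2% ± 10.9 for maternal genistein libraries (exact permutation p = 0.0286).

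Centrosome, membrane and mitochondrial genes make up the next group. Cep76 encodes a centriolar protein that limits centriole reduplication, and the site 7154 bases from it at position 67609810 of chromosome 18 lies inside Spire1, an actin nucleator, on RefSeq. It read 21.1%, 2.56% and 22.7% in control and 80.6%, 73.4%, 69.9% and 71.2% in maternal genistein (quasi-binomial p = 0.00028). Phb encodes prohibitin, a scaffold of the inner mitochondrial membrane. At position 95682095 of chromosome 11, 1322 bases downstream of Phb, control levels were 33.3%, 56.7% and 60%, and all 4 maternal genistein libraries were fully methylated, at 14, 11, 14 and 22 reads (quasi-binomial p = 0.000631). Gpat4, an acyltransferase of glycerolipid synthesis, had a site 6896 bases away at position 23166050 of chromosome 8, inside the predicted gene Gm30306. The site near Gpat4 was high in control (75.4%, 76.6% and 80.6%) and low in maternal genistein (3.66%, 20%, 22.6% and 6.67%), with a quasi-binomial p of 0.000702.

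At position 46970366 of chromosome 8 the control libraries were fully methylated and the maternal genistein libraries read 46.9%, 58.1%, 61.1% and 68.8% (quasi-binomial p = 0.000736). This site is 16521 bases upstream of Enpp6, a choline-specific phosphodiesterase, by the authors' annotation, and inside Enpp6 on RefSeq. Cxcr4, the receptor of the chemokine CXCL12, had the reverse pattern 1201 bases downstream, at position 128586998 of chromosome 1, with 80.6%, 58.2% and 63.6% in control and 100% in every maternal genistein library (quasi-binomial p = 0.000763). Tpt1 encodes the translationally controlled tumour protein. Downstream of it by 14017 bases, at position 75862320 of chromosome 14, control levels were 96.6%, 98.1% and 88% and maternal genistein levels 17.4%, 31.5%, 40.7% and 57.1% (quasi-binomial p = 0.000848). The tenth site is the CpG after the Gm40565 start shown above, 2466 bases from the lncRNA AU015791 (quasi-binomial p = 0.000505). All 10 kept a p under 0.05 when any 1 library was left out, the highest being 0.00668 without maternal genistein replicate 3 at the Cxcr4 site. As these 10 were picked for their low p, this and their separate groups follow in part from that choice and are no added support.

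**Figure D2:**
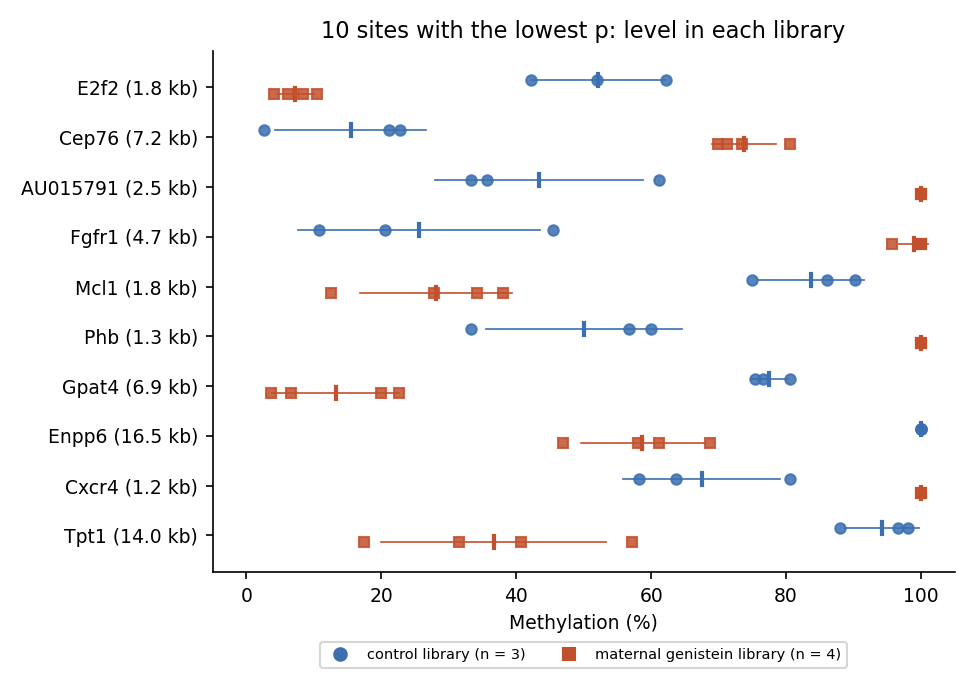
Methylation level (%) in each library at the 10 sites with the lowest p, named by the nearer gene and its distance, with control in blue circles (n = 3) and maternal genistein in orange squares (n = 4); vertical ticks are means and thin lines ± 1 SD. In every row the 2 groups are separated by a gap, and 5 rows have maternal genistein to the right of control.

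The largest differences with groups apart lay in both directions. Ccdc32 had the largest negative one, at position 119014924 of chromosome 2, 2855 bases away, where control libraries read 90.8%, 100% and 100% and maternal genistein libraries 47.9%, 3.77%, 12.7% and 40% (quasi-binomial p = 0.00408). Foxe1, a forkhead factor of thyroid development, came after a site near Slc17a5 described below. At position 46356836 of chromosome 4, 11527 bases from Foxe1, levels were 75.7%, 83.3% and 100% in control and 44.1%, 33.3%, 0% and 5.71% in maternal genistein (quasi-binomial p = 0.0128). Among positive differences, the lncRNA Gm11529 had 23.9%, 0% and 0% in control and 42.9%, 84.6%, 88% and 84.6% in maternal genistein, 2011 bases away at position 96444888 of chromosome 11 (quasi-binomial p = 0.0149). The spread within maternal genistein was above 20 points (SD) at the Ccdc32, Foxe1 and Gm11529 sites, so the 2 groups were apart without being tight.

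At the ends of the scale, 17 sites read 100% in all 4 maternal genistein libraries, and 9 read 100% in all 3 control libraries. Over all listed sites these shares were 1.71% and 1.32%, beside 2.17% and 1.15% of the 784. At 0% in every library stood 8 sites in maternal genistein (1.02%) and 7 in control (0.893%). The shares at 0% over all listed sites were 0.971% and 0.693%. One of the 7 lies 1193 bases from Foxc2, a forkhead factor of lymphatic and mesenchymal development, at position 121114978 of chromosome 8. Control libraries read 0% there and maternal genistein libraries 25%, 53.3%, 15% and 35.7% (quasi-binomial p = 0.0137, or 0.063 without control replicate 2). The control levels of 0% there rest on 30, 38 and 12 reads.

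By distance, the sites closest to genes had the highest share with a p under 0.05. Of the 85 sites 1 to 2 kb from the nearer gene, 42 (49.4%) had such a p and 56 (65.9%) were higher in maternal genistein. From 2 to 5 kb it was 55 of 177 (31.1%), from 5 to 10 kb 72 of 195 (36.9%), from 10 to 15 kb 57 of 178 (32%) and from 15 to 20 kb 49 of 149 (32.9%). Only the nearest bin stood well away from the 31.6% of all listed sites, and the difference between bins was not tested. Higher sites made up 53.1%, 60.5%, 55.1% and 52.3% in the 4 bins from 2 kb outward.

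**Figure D3:**
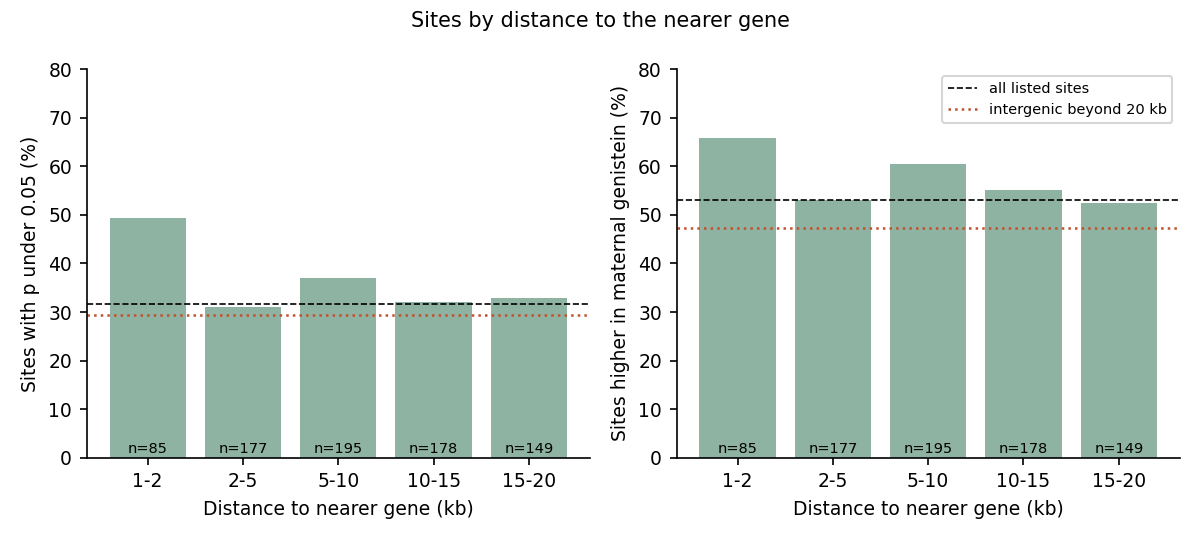
Share of sites (%) with a quasi-binomial p under 0.05 (left) and with a higher mean level in maternal genistein (right), by distance to the nearer gene in kb, with the number of sites in each bar; the lines give the same shares over all listed sites and over intergenic sites beyond 20 kb. The bar for 1 to 2 kb is the tallest in both panels, at 49.4% and 65.9%.

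Sites were also counted by side and annotation. The strand of the nearer gene was matched for 549 sites, of which 311 lie upstream and 238 downstream. A p under 0.05 was found at 94 upstream sites (30.2%) and 92 downstream sites (38.7%). Such a p was found at 31.6% of all listed sites and 35.1% of the 784. Sites inside a RefSeq gene were higher in maternal genistein at 112 of 176 (63.6%), with 74 (42.0%) at a p under 0.05, 55 of those higher and 19 lower. Among the 608 sites outside every RefSeq gene, 332 (54.6%) were higher and 201 (33.1%) had a p under 0.05, 104 higher and 97 lower. Over all listed sites 53.1% were higher. These are counts over sites that were not chosen at random, and no difference between them was tested.

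The promoters of the nearer genes are CpG-rich. A RefSeq promoter window was found for 458 of the 642 nearer genes, with a median of 18 CG dinucleotides (letters CG, counted once, since CG reads the same on both strands). For a gene with several windows, the window with the most CG was taken. The median was 15 for 657 nearer genes of intergenic sites beyond 20 kb and 8 over all genes. At least 10 CG were held by the window taken for 65.1%, 62.9% and 45.8% of these genes. RRBS reads CpG-rich fragments, so this feature is shared with the assay's own choice of sites.

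Neighbouring sites mostly differed in the same direction. Joining sites at most 1000 bases apart gave 662 runs, of which 572 are single sites and 90 hold 212 sites. All sites of a run had differences of the same sign in 84 of the 90 (93.3%), 48 higher and 36 lower, beside 94.4% of runs over all listed sites. Sites of a run are read from the same or adjoining fragments and are not independent.

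The 6 runs with the most sites, ties taken by lowest median p, lay near Gm20611, Arap3, Actn1, Cep76, Slc17a5 and Tpt1. Over the 5 sites within 54 bases near the lncRNA Gm20611, on chromosome 10 from 61051129 to 61051182, mean levels were 20%, 20.9% and 38.6% in control and 65.2%, 63.1%, 56.4% and 79.7% in maternal genistein. Slc17a5 encodes sialin, the lysosomal exporter of sialic acid, and its 4 sites span 55 bases of chromosome 9, from 78525889 to 78525943, 10544 to 10598 bases downstream. Their mean was 87.7%, 98.1% and 79% in control and 4.03%, 36.3%, 53.5% and 22.3% in maternal genistein. In the run near Cep76, 4 sites from 67609306 to 67609826 of chromosome 18, it was 20.2%, 5.64% and 45.6% against 89.6%, 80.6%, 77.4% and 79.9%. These 3 runs had separate groups, each with an exact permutation p of 0.0286, and the Slc17a5 and Cep76 runs had a p under 0.05 at all 4 of their sites.

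The p of the Slc17a5 sites was highest without control replicate 1. It was 0.0327 without control replicate 1 at position 78525889, the site with the largest difference of the 4, from 0.00548 with all libraries. At positions 78525922, 78525930 and 78525943 it was 0.111, 0.0560 and 0.0546 without control replicate 1. At position 78525922 it was also 0.05 or more without control replicate 2 (0.0773) or 3 (0.0835), or without maternal genistein replicate 2 (0.0640) or 4 (0.0738). In the Cep76 run the site at position 67609826 had a quasi-binomial p of 0.0254, or 0.0731 without control replicate 1, and the other 3 stayed under 0.05 without any 1 library.

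Near Tpt1 the groups were also apart over 4 sites within 24 bases, with 77.5% ± 3.91 in control and 32.2% ± 19 in maternal genistein, but maternal genistein replicate 4 stood at 59.9% where the other 3 ranged from 17.4% to 28.0% (exact permutation p = 0.0571). Arap3, a GTPase-activating protein for small GTPases, and Actn1, an actin crosslinker, each had 5 sites whose groups overlapped. The Arap3 run on chromosome 18 read 72.9%, 86.6% and 57.6% in control and 17.5%, 16.8%, 22.1% and 65% in maternal genistein. For Actn1 on chromosome 12 the levels were 82.6%, 70.8% and 74.7% and 73.7%, 13.5%, 52.9% and 38.9%, and the exact permutation p was 0.0857 for both runs. In each of these runs 1 maternal genistein library lay among the control libraries: replicate 4 near Arap3 and replicate 1 near Actn1.

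**Figure D4:**
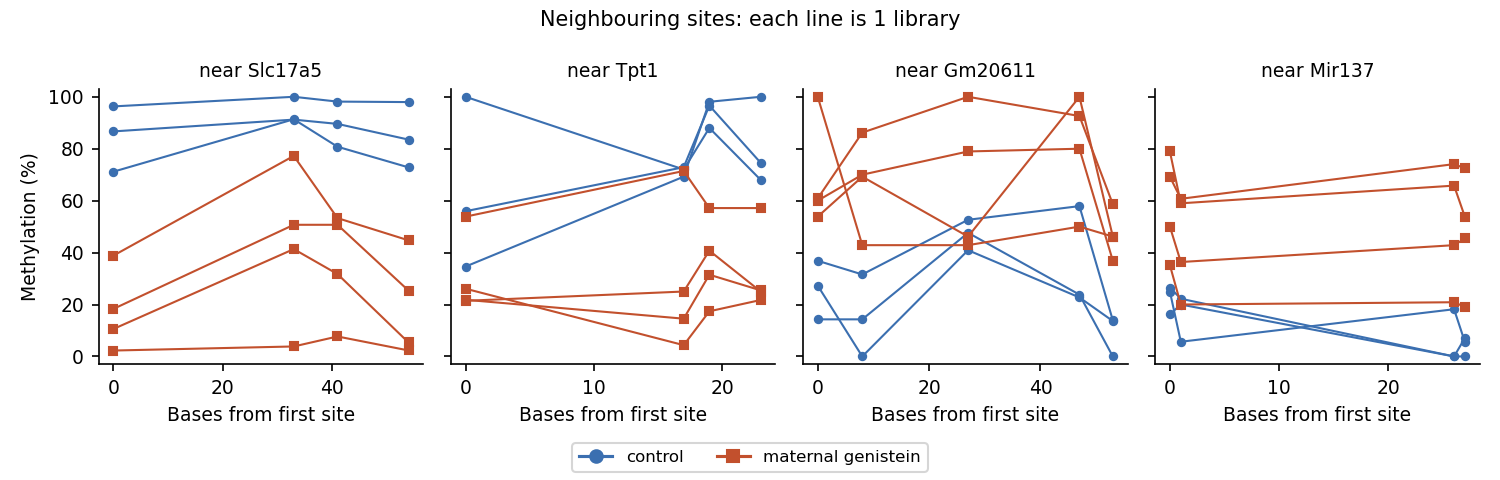
Methylation level (%) against distance in bases from the first site of 4 runs of neighbouring sites, 1 line per library, with control in blue (n = 3) and maternal genistein in orange (n = 4). Near Slc17a5 the orange lines lie below the blue ones at every site, and near Gm20611 and Mir137 mostly above them, while near Tpt1 one orange line runs close to the blue ones.

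The authors' deposited table of differing regions holds 139 regions, and 5 of them hold 14 of the sites. In the authors' deposited table the region near Slc17a5 had mean levels of 87.3% in control and 29.6% in maternal genistein, and that near Cep76 25.1% and 82.2%. For Gpr37l1, an orphan G protein-coupled receptor of glia, the authors' deposited table gave 46.8% and 6.26%, and all 3 sites there had separate groups. At position 135183949 of chromosome 1 in that region, levels were 52.5%, 79.3% and 38.5% in control and 0%, 0%, 13.6% and 8.57% in maternal genistein (quasi-binomial p = 0.00609). The other 2 Gpr37l1 sites lost a p under 0.05 without 1 library, with 0.0904 without maternal genistein replicate 2 at position 135183863 and 0.0699 without control replicate 2 at position 135183932. A further region lies near Ung, a uracil-DNA glycosylase, and inside Acacb, an acetyl-CoA carboxylase, on RefSeq, with 12.6% and 60.7% in the authors' deposited table. Its 1 listed site among the 784 had means of 13% ± 15.8 and 65.4% ± 25.8 (quasi-binomial p = 0.0373, or 0.0905 without control replicate 1).

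Gene lists on mammary cell types, growth factor pathways and development were looked up among the nearer genes. Of 295 listed genes, 21 were the nearer gene of a site, with 31 sites, 8 of which (25.8%) had a p under 0.05, beside 31.6% of all listed sites and 35.1% of the 784. The sites of listed genes are therefore described and not set apart from the rest. The lists of homeobox and developmental regulators had the most: 9 of 51 genes with 13 sites, 9 higher and 4 lower in maternal genistein, 4 higher and 1 lower at a p under 0.05. Their median difference was 28.4 points, beside 22.1 points over the 784 sites and 18.8 over all listed sites. Sites with a p under 0.05 included those near Foxe1 and Foxc2, given above, and near Pax9 and Msx1.

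Near Pax9, a paired-box factor of tooth and pharyngeal pouch development, position 56691157 of chromosome 12 read 0%, 0% and 7.89% in control and 10.2%, 18.6%, 45.6% and 24.6% in maternal genistein (quasi-binomial p = 0.0293, or 0.109 without control replicate 1). The groups were apart there, with the maternal genistein libraries higher. Msx1, a homeobox factor of craniofacial and limb development, had 4 sites, 3 higher and 1 lower. The one with a p under 0.05, at position 37832202 of chromosome 5, read 23.5%, 0% and 18.2% in control and 38.5%, 30.6%, 57.7% and 30.8% in maternal genistein (quasi-binomial p = 0.0486, or 0.101 without control replicate 3). Position 37832203, the next base, read 0%, 0% and 40% in control and 94.7%, 0%, 81% and 0% in maternal genistein (quasi-binomial p = 0.146). A CpG is read separately on its 2 strands, and these neighbouring bases did not have the same levels. Sites near Hoxb13, Tbx3, Foxc1 and Lhx2 had a p of 0.05 or more.

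The list of ERBB and FGF growth factors and receptors held Fgfr1, with the 3 sites above, and Igf1r, the receptor of insulin-like growth factor 1, with 1 site (74.7% ± 23.2 in control, 56.8% ± 29.3 in maternal genistein, quasi-binomial p = 0.181). The Wnt, Notch and Hedgehog, oncogene, imprinted, immediate early, mesenchymal transition and DNA methylation lists together held 8 genes, and none of their sites had a p under 0.05. Among these, Twist1, a transcription factor of mesenchymal transition, had 3 sites, all lower in maternal genistein, with a p from 0.0641 to 0.282. Tet1, an enzyme that oxidises methylcytosine, had 1 site 3792 bases upstream with means of 61.8% ± 27.7 and 85% ± 10.4 (quasi-binomial p = 0.107). Lists of basal, luminal, milk and estrogen response genes had 0 sites among the 784. The table holds only sites past the authors' thresholds, so other CpGs near those genes were not analysed here. Of 23 markers of other cell types, those nearer to a site were Lyz2, a myeloid lysozyme, with 61.5% ± 21.6 against 96.4% ± 7.2 (quasi-binomial p = 0.0491, or 0.11 without control replicate 1), and Col1a1, a fibroblast collagen, with 43.8% ± 16.2 against 6.94% ± 13.9 (quasi-binomial p = 0.0874). The part of cell mix in these levels was not tested.

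MicroRNAs are short RNAs that direct silencing of messenger RNAs through a seed at bases 2 to 8. Of the 784 sites, 20 had 1 of 14 microRNA genes as the nearer gene, 7 higher and 13 lower in maternal genistein. A p under 0.05 was found at 6 (30%), 2 higher and 4 lower, beside 31.6% of all listed sites, so the share is near the background. The groups did not overlap at 5 of the 20, beside 27.8% of all listed sites. RefSeq held 18 mature sequences of 11 of these genes, and their 18 seeds all differ. Mature RNAs of Mir137, Mir148a, Mir7216, Mir8096 and Mir1195, which had a site with a p under 0.05, are shown to identify them, with the seed in capitals.
mmu-miR-137-3p: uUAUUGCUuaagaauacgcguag
mmu-miR-137-5p: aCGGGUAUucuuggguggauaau
mmu-miR-148a-3p: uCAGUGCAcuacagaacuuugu
mmu-miR-148a-5p: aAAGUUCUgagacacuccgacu
mmu-miR-7216-5p: uGGAGAGCuggcagaggacccaga
mmu-miR-7216-3p: uGGAAUUUggucuuuuccggc
mmu-miR-8096: gGGCACGGuagcugaagagu
mmu-miR-1195: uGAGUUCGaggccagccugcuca

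Mir137, a microRNA gene best known from neurons, had 4 sites within 28 bases of chromosome 3, from 118435325 to 118435352, 1396 to 1423 bases away. They are 2 CpGs, each read on both strands. Mean levels over the run were 14%, 9.05% and 13.6% in control and 69.1%, 64.3%, 23.8% and 43.7% in maternal genistein, so every maternal genistein library was above every control library (exact permutation p = 0.0571). At position 118435352 the control libraries read 7.14%, 0% and 5.45% and the maternal genistein libraries 72.4%, 53.7%, 19% and 45.5% (quasi-binomial p = 0.012). The paired base on the other strand, position 118435351, read 0%, 0% and 18.2% and 74.1%, 65.8%, 20.9% and 42.9% (quasi-binomial p = 0.0722). On both strands maternal genistein replicate 3 was the lowest of its group and the control libraries stayed at 18.2% or less.

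Mir148a, a microRNA abundant in milk, had a site 14823 bases away at position 51284733 of chromosome 6, with 20%, 5.88% and 52.5% in control and 83.3%, 80.4%, 51.3% and 100% in maternal genistein (quasi-binomial p = 0.0445, or 0.131 without control replicate 2). The 4 lower sites with a p under 0.05 lay near Mir7216, Mir8096, Mir669a-4 and Mir1195. For Mir7216, position 27324831 of chromosome 17 read 72.1%, 59.7% and 30% in control and 19.2%, 15.2%, 27.1% and 20% in maternal genistein (quasi-binomial p = 0.0208, or 0.0786 without control replicate 2). The Mir8096 site at position 85762555 of chromosome 1 had means of 73.1% ± 18.6 and 38.1% ± 12.8 (quasi-binomial p = 0.0257, or 0.102 without control replicate 3). Near Mir669a-4, at position 51628873 of chromosome 17, the means were 83.1% ± 4.36 and 57.5% ± 25.6 (quasi-binomial p = 0.0366, or 0.112 without maternal genistein replicate 3). The Mir1195 site at position 70857235 of chromosome 17 stood at 88.6% ± 15.8 and 49.5% ± 29.4 (quasi-binomial p = 0.0496, or 0.142 without control replicate 2). The groups were apart at the Mir7216 and Mir8096 sites and overlapped at the other 2. Mir205, a microRNA of basal epithelium, and Mir34a, a p53 target, each had 1 lower site whose groups overlapped (quasi-binomial p = 0.0552 and 0.0841).

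RNA was read in libraries separate from those of RRBS, and the labels do not tie any RNA library to the mouse behind an RRBS library. RNA of the nearer genes comes from the authors' deposited table, which lists 1324 genes called by DESeq. Its header does not name the numerator, and a positive fold is read here as higher in maternal genistein, because chromosomes with more positive genes had higher RRBS coverage in that group (Pearson's r = 0.918, over 20 chromosomes). The opposite reading turns every RNA sign below. The sign of the fold also varied by chromosome, with 19.3% of called genes positive on chromosome 2 and 86.6% on chromosome 9. The part of the chromosome in the pairs of methylation and RNA signs below was not tested. Among the 642 nearer genes 45 (7.01%) were in the authors' deposited table, 22 positive and 23 negative, beside 768 positive of all 1324 genes there. They account for 53 sites (6.76%). Of intergenic sites beyond 20 kb, 6.66% had a nearer gene there.

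The directions of methylation and RNA, each a difference between groups and not matched within a tumour, were mixed at these sites. Higher methylation went with a positive fold in the authors' deposited table at 13 sites and with a negative one at 18. Lower methylation went with a positive fold at 10 and a negative one at 12 in the authors' deposited table, so 28 sites had opposite and 25 the same sign. Within 2 kb of the gene 7 of 9 sites had opposite signs, within 5 kb 10 of 16, and upstream of it 16 of 24. These are small subsets of the 53 sites, a gene can count more than once in them, and no difference from the other sites was tested. A p under 0.05 was found at 11 of the 53 sites (20.8%), beside 31.6% of all listed sites. The groups did not overlap at 13 (24.5%), beside 27.8% of all listed sites.

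Lower methylation with a positive fold was seen near Foxe1, Syt7, Bst1, Sema3f and Plcg2. Foxe1, whose site is given above, had a log2 fold change of 5.76 (SE 1.80) in the authors' deposited table. Syt7, a calcium sensor of vesicle release, had levels of 43.2%, 100% and 78.9% in control and 29.5%, 15.8%, 31% and 10% in maternal genistein 1857 bases away (quasi-binomial p = 0.0405, or 0.0992 without maternal genistein replicate 2). Its log2 fold change was 2.77 (SE 0.59) in the authors' deposited table. Bst1, an ectoenzyme that uses NAD, had control libraries at 100% and maternal genistein libraries at 100%, 45.5%, 90.9% and 68.8% (quasi-binomial p = 0.0425, or 0.13 without control replicate 2), with a log2 fold change of 2.47 (SE 0.73) in the authors' deposited table. For Sema3f, a secreted guidance protein, the means were 47.6% ± 10.5 and 12.9% ± 16.8 (quasi-binomial p = 0.0357, or 0.125 without control replicate 2), and the authors' deposited table gave 0.95 (SE 0.31). Plcg2, a phospholipase C, stood at 80.9% ± 5.59 and 46% ± 32.7 (quasi-binomial p = 0.0259, or 0.0833 without control replicate 2), with 0.93 (SE 0.23) in the authors' deposited table.

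Higher methylation with a negative fold was seen near Larp4, Foxc2 and B3gnt7. Larp4, an RNA-binding protein of messenger RNA stability, had the lowest p among sites of called genes, 9183 bases upstream, where control libraries read 47.2%, 42.2% and 66.7% and maternal genistein libraries 100%, 85.7%, 95% and 93.3% (quasi-binomial p = 0.00343). Its log2 fold change was -0.67 (SE 0.23) in the authors' deposited table, and on RefSeq the site lies in Fam186a. Foxc2 had -2.06 (SE 0.55) in the authors' deposited table, and B3gnt7, a glycosyltransferase, -1.34 (SE 0.37). The edgeR false discovery rate in the authors' deposited table was 0.0826 for Larp4 and 0.0539 for B3gnt7, both above 0.05. For Foxc2 it was 0.0268. At the B3gnt7 site control levels were 100%, 48% and 72.7% and maternal genistein levels 100% in every library (quasi-binomial p = 0.0232, or 0.0868 without control replicate 2). Both directions were the same near Hs3st3b1, a heparan sulfate sulfotransferase, and Ddit4l, an inhibitor of mTOR signalling. Hs3st3b1 had 60%, 16.1% and 29.6% in control and 0% in every maternal genistein library 1962 bases upstream (quasi-binomial p = 0.00549), with a log2 fold change of -2.75 (SE 0.58) in the authors' deposited table. Ddit4l had means of 21.7% ± 10.7 and 57% ± 16.6 (quasi-binomial p = 0.0313, or 0.0808 without control replicate 3) and a log2 fold change of 1.95 (SE 0.52) in the authors' deposited table. The eleventh site, near the kinase Nuak1 and named after its value was seen, was higher with 1.66 (SE 0.50) in the authors' deposited table.

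**Figure D5:**
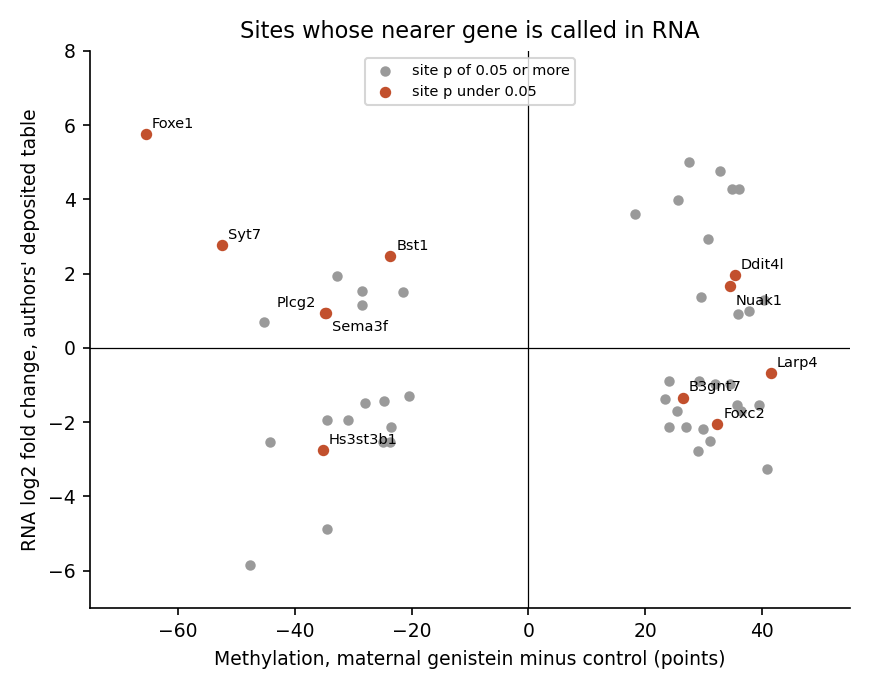
Log2 fold change of RNA in the authors' deposited table (y axis) against the difference of mean methylation levels, maternal genistein minus control, in percentage points (x axis), for the 53 sites whose nearer gene was called; orange points have a quasi-binomial p under 0.05 and carry the gene name. Points fall in all 4 quadrants, with 13, 18, 10 and 12 sites.

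By chromosome, the largest number of sites lay on chromosome 5, with 78, of which 53 were higher in maternal genistein. Chromosome X had 14 sites, 7 in each direction. Both listed sites of chromosome Y belong to the 784, near G530011O06Rik, and both had higher mean levels in maternal genistein, with a quasi-binomial p of 0.0341 and 0.0266. The labels do not give the sex of the mice, and whether reads from a similar copy elsewhere fall on these sites was not tested, so no direction is drawn from them.

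The sites on either side of the distance limit are given as a description. Just inside it, Alg10b at 19956 bases had a difference of -51.3 points, and D16Ertd519e at 19986 and 19992 bases had 49.8 and 35.5 points. Just outside, Bcas1 at 20002 bases had 29.0 points, Psmd7 at 20071 bases -27.6 and Sox6 at 20120 bases 33.6.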

How the data were processed

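Per the submitters' processing notes, the tools were FastQC, Trim Galore, Bismark, STAR, HTSeq, DESeq and R 3.6.1, with GRCm38 and mm10 as builds (the same coordinates), and no role is stated for any tool. The authors deposited, per site and library, read counts (total, methylated, unmethylated), the percent methylation, a p-value and q-value, and score columns for the difference. For each region the authors deposited the methylated fraction averaged per group, printed here as percent. Per the file headers, the RNA table gives a mean normalised count over libraries (a signal), log2 fold changes of DESeq and edgeR, a standard error and p-values.

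Every one of the 4327 listed sites had at least 10 reads in each library, and pooling the reads of a group in a likelihood-ratio test gave back the deposited p-values. Here a quasi-binomial model (dispersion floor 1, F test with 5 residual degrees of freedom) was fitted at all listed sites with Benjamini-Hochberg adjustment (Python 3.11.15, scipy 1.17.1). The model was first run on simulated reads, whose base levels were kept away from both ends of the scale. That run does not cover sites at those ends. Single levels were compared by two-sided exact permutation tests. limma 3.58.1 on logit levels (0.5 added to each count), a coverage minimum of 20 reads, a chi-square reference, no dispersion floor, a distance limit of 10000 bases, a gap of 200 bases between neighbours and leaving out each library were alternatives. Intervals are exact binomial, and PCR reads are not independent molecules.

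The sites and gene lists were chosen with earlier results of these data known. Sites were named by rule: the 10 lowest p, the 6 runs with most sites (ties taken by lowest median p), the 10 lowest p among genes of the RNA table, the 5 largest differences each way with groups apart, sites of listed and microRNA genes with a p under 0.05, sites in deposited regions, and the 3 on either side of 20000 bases. The labels name no batch. The deposited table that pairs RNA with sites was not used here. Some sites that the rule picked are not reported here.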

Additional observations from a re-analysis of the deposited data

Results flagged for a closer look

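The 4 maternal genistein levels were examined at 43 named sites, with their read totals as another set, and in 7 of the 44 sets 1 library stood far from the other 3 for the width of the set. Chance sets apart about 1 in 20 groups of continuous values, a rate that does not hold where the other 3 libraries are tied at 0% or 100%, as at the Fgfr1, Lyz2 and Gpr37l1 sites below. There any gap, however small, sets a library apart. Replicate 4 read 94.74% at the Plcg2 site, where the others ranged from 25.53% to 35.19%, and 95.83% at the Mir669a-4 site, against 42.42% to 46.94%. Both values lie above every control library at the same site. Replicate 3 read 32.14% at the Ddit4l site, against 64.52% to 66.67%, and 17.86% at position 135183863 near Gpr37l1, where the others read 0%. Replicate 1 read 42.86% near Gm11529, against 84.62% to 88%, and 85.59% near Lyz2, against 100%. Replicate 2 read 95.65% at position 25514026 near Fgfr1, where the others read 100%. No single replicate accounts for all 7.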

How the results depend on the processing

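The count of 275 sites with a p under 0.05 was 98 of 243 (40.3%) with at least 20 reads in every library. Of all listed sites with that many reads, 35.5% had such a p. It was 445 (56.8%) with a chi-square reference, beside 55.8% of all listed sites. Within 10 kb it was 169 of 457 (37.0%), beside 31.6% of all listed sites. Leaving out 1 library gave 177 (22.6%, without control replicate 2) to 258 (32.9%, without control replicate 3), beside 22.8% and 29.4% of all listed sites. The count passing adjustment, 0, was 2 with at least 20 reads (the E2f2 site and Cep76 at position 67609810, adjusted quasi-binomial p = 0.0492). Of all 1230 listed sites with that many reads, 7 passed. It was 330 with the chi-square reference, beside 1731 of all 4327 listed sites. With no dispersion floor it was 2, beside 14 of all 4327. Those were Enpp6 and Trmo (adjusted quasi-binomial p = 0.0453 and 0.0178, Trmo being named after its value was seen). The count stayed 0 with limma and without any 1 library. Those 2 with no floor were not the same sites as the 2 with more reads. The 238 sites with groups apart were 91 (37.4%) with at least 20 reads, beside 33.1% of all listed sites with that many. Within 10 kb they were 149 (32.6%), beside 27.8% of all listed sites. Without 1 library they were 299 to 379 (38.1% to 48.3%), beside 35.6% to 45.0% of all listed sites. Fewer libraries overlap less often by construction. The share of lower sites, 43.4%, was 39.5% with at least 20 reads and 43.1% to 44.6% without 1 library. The 46 sites that the naming rule picked kept their direction without any 1 library. The other alternatives use the same levels, so direction could not change there. The sites were also selected for this contrast, so no conclusion is drawn from the direction. Of the 46 sites, 26 lost a p under 0.05 without at least 1 library, 20 did not, and 9 lost it with limma. A test limited to more reads or a shorter distance covers fewer sites.

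Same-numbered libraries of the 2 groups had deviations with correlations of 0.0221, 0.00903 and -0.0323. Those of differently numbered libraries ran from -0.0732 to 0.0525. The labels do not say what the numbers share, and correlations over so few libraries cannot decide whether they pair the tumours. With the replicate number as a block, 204 of the 784 sites had a p under 0.05, beside 999 of all 4327 listed sites, and 0 of the 784 passed adjustment. Of those 46 sites, 22 had a p of 0.05 or more. Maternal genistein replicate 4 has no control of its number, so it adds nothing to the contrast in that fit. Depth limits maternal genistein replicate 4 most, with a median of 19 reads per site.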
